A study of Mus musculus with 8 samples.

Results

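The 10 transcripts described here are known from the cytoskeleton, synapses and excitable membrane of neurons, and were measured in RNA sequencing libraries of naive CD8 T cells, lymphocytes that become cytotoxic after meeting antigen. They were Mtap1b, Prune2, Pclo, Snap25, Rab3c, Nefl, Nefm, Nefh, Prph and Scn10a, 10 of the 22609 genes in the table, matched by symbol. They were chosen by measured values, their normalized read counts in Brca1 heterozygous (Het) and wild type (WT) libraries, so their values by genotype, and the calls that a fit over all genes gives them, are a description and support nothing. The 4 Het libraries (31, 53, 56 and 139, numbered as in their titles) and the 4 WT libraries (45, 54, 57 and 65) came from splenic naive CD8 T cells of C57BL/6 mice aged 3 months. The way the Brca1 allele was made, the sex and litter of the mice, and whether each library is a separate mouse are not stated by the labels, so any p-value measures the spread between these libraries.

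Neurons carry long axons whose core is built of microtubules and of neurofilaments, polymers of light, medium and heavy subunits joined in many peripheral neurons by peripherin. At the synapse, vesicles dock at a protein scaffold called the active zone and fuse with the membrane through SNARE proteins. Types of neuron are told apart by transmitter enzymes, ion channels and transcription factors. The cell bodies of peripheral sensory neurons lie in ganglia beside the spinal cord, and those of the sympathetic neurons that innervate the spleen lie in sympathetic ganglia. The comparison of the genotypes asked which transcripts differ when 1 Brca1 copy is affected, and the marker lists below asked which kinds of neuron the transcripts are known from.

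The promoters of Pclo, Prph and Scn10a are shown because these genes had 3 different patterns over the WT libraries, described below. Each sequence is 300 bases, from 250 bases before to 50 bases after the gene start, credited to RefSeq on build GRCm38.p6, and runs 5' to 3' on the gene's own strand. Pclo lies at chr5:14514668-14514967 on the + strand, Prph at chr15:99054924-99055223 on the + strand and Scn10a at chr9:119718983-119719282 on the - strand. Capitals mark TATAAA and GGGCGG or its reverse complement CCGCCC.
Pclo: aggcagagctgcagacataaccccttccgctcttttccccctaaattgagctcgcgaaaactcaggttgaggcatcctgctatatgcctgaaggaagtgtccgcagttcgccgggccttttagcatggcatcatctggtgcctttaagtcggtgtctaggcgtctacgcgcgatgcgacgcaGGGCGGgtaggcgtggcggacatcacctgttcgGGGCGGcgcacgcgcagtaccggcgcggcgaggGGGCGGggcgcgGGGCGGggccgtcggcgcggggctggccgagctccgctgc
Prph: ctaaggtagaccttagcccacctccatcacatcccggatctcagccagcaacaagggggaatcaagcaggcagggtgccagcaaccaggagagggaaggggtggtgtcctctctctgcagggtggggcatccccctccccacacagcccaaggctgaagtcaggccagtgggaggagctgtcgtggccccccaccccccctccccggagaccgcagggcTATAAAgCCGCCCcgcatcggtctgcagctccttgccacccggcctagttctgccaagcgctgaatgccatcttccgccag
Scn10a: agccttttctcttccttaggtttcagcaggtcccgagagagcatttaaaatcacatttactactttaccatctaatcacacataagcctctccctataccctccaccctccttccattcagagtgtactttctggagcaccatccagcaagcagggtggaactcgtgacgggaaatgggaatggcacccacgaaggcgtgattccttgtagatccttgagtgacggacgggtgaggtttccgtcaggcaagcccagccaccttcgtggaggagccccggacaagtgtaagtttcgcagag

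Of the 10 genes, 6 (Mtap1b under its current symbol Map1b, Prune2, Pclo, Rab3c, Prph and Scn10a) matched a promoter in that table. On either strand, TATAAA was found in 2 of the 6 (Mtap1b and Prph) and in 13.6% of all 32851 promoters of this length. In Prph it started 31 bases before the gene start. GGGCGG was found in 5 of the 6, 4 times in Pclo and not in Scn10a, and in 35.7% of all promoters. TTCAGCACC, the left part of the RE1 element bound by the neuronal repressor REST, was in none of the 6 and in 0.371% of all promoters. These matches describe letters in these windows and show no binding.

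The deposited values are normalized read counts with 1 decimal, and as deposited they have the same distribution in each library, so library totals carry no depth. Cd8a, a chain of the CD8 coreceptor that defines these cells, was at 45657.9 to 50265.2 in Het and 40591 to 46876.7 in WT libraries. The number of genes above 0 was 14269.5 ± 391 in Het and 15486 ± 96.1 in WT libraries (SD, n = 4 each, exact 2-sided permutation p = 0.0286, the smallest that 70 assignments can give). The lowest value above 0, which stands for 1 read, was 0.9 to 1.9 in Het and 0.2 to 0.3 in WT libraries. The third distinct value, about 3 reads, was 2.4 to 4.4 in Het and 0.7 to 1.1 in WT libraries. A count of 0 in a Het library thus allows a value up to about that size, counting error only. In bulk RNA, fewer cells of a type and less RNA per cell cannot be told apart.

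**Figure D1:**
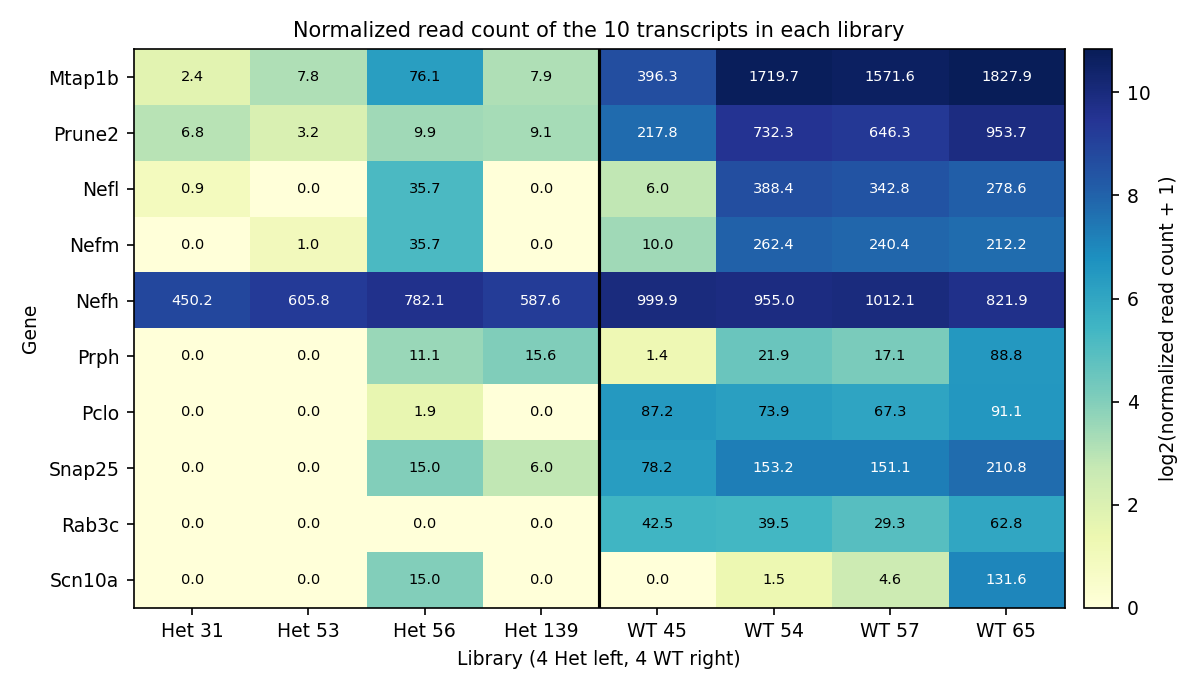
Normalized read count of the 10 transcripts (rows) in the 4 Het and 4 WT libraries (columns), coloured on a log2(value + 1) scale and printed in each cell. Nefh is between 450.2 and 1012.1 in each library, whereas Pclo and Rab3c are at 1.9 or less in each Het library and at 29.3 or more in each WT library.

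The microtubule protein gene and Prune2 had the widest separation of the genotypes among the abundant members. Mtap1b encodes a microtubule-associated protein of growing axons, and its normalized read count was 2.4, 7.8, 76.1 and 7.9 in Het 31, 53, 56 and 139, against 396.3, 1719.7, 1571.6 and 1827.9 in WT 45, 54, 57 and 65. Every Het library lay below every WT library, with Het 56 well above the other Het libraries and WT 45 well below the other WT libraries. The Het mean was 1.71% of the WT mean, and the log2 difference (Het minus WT, on values + 1) was -6.63 (SE 0.84).

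Prune2, a gene abundant in nervous tissue that is not known as a structural part of the cytoskeleton or the synapse, was at 6.8, 3.2, 9.9 and 9.1 in Het 31, 53, 56 and 139, against 217.8, 732.3, 646.3 and 953.7 in WT 45, 54, 57 and 65. The genotypes did not overlap, and Het 56 did not stand apart from the other Het libraries here. Its log2 difference was -6.18 (SE 0.48), and its Het mean was 1.14% of the WT mean. Within each WT library Mtap1b was 1.82, 2.35, 2.43 and 1.92 times Prune2 in WT 45, 54, 57 and 65. Of the 45 pairs among the 10 genes, this ratio varied least over the WT libraries, with an SD of 0.21 on the log2 scale.

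The neurofilament subunits did not share 1 pattern. Nefl, the light subunit that starts filament assembly, was at 0.9, 0, 35.7 and 0 in Het 31, 53, 56 and 139, against 6, 388.4, 342.8 and 278.6 in WT 45, 54, 57 and 65. Nefm, the medium subunit, was at 0, 1.0, 35.7 and 0 in the same Het libraries, against 10, 262.4, 240.4 and 212.2 in the same WT libraries. For both genes Het 56 exceeded WT 45, so the genotypes overlapped. WT 54, 57 and 65 were high, WT 45 was low, and the other 3 Het libraries had at most about 1 read.

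Nefl was 1.48, 1.43 and 1.31 times Nefm in WT 54, 57 and 65, 0.6 times in WT 45 and equal to it in Het 56. By the rank of their values, Nefl in WT 45 rested on about 13 reads and each of the 2 genes in Het 56 on about 27, so the ratios in WT 45 and Het 56 are loose. In GENCODE release M21 the Nefl and Nefm gene models overlap on opposite strands, and whether the counting used strand is not given by the labels, so reads of the overlap may be shared.

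Nefh, the heavy subunit, known from thick myelinated axons, was at 450.2, 605.8, 782.1 and 587.6 in Het 31, 53, 56 and 139, against 999.9, 955.0, 1012.1 and 821.9 in WT 45, 54, 57 and 65. It was present in each library, also where Nefl and Nefm were at or near 0, and the genotypes did not overlap. It averaged 606 ± 136 in Het and 947 ± 87.1 in WT libraries (SD, n = 4 each). On the log2 scale the difference was -0.67 (SE 0.16). The sum of Nefl and Nefm was 0.200%, 0.165%, 9.13% and 0% of Nefh in Het 31, 53, 56 and 139, against 1.60%, 68.1%, 57.6% and 59.7% in WT 45, 54, 57 and 65. Nefh in WT 45 was thus as high as in WT 54 and 57 while its partner subunits were nearly missing.

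Per kilobase of exon, Nefh was the highest of the 10 genes in each of the 8 libraries, at 113 to 196 in Het and 206 to 253 in WT libraries. In WT 54, 57 and 65 the next was Mtap1b, at 121, 110 and 128 per kilobase. The WT means per kilobase were 96.7 ± 46.5 for Mtap1b, 75.1 ± 50.7 for Nefl, 66.4 ± 24.3 for Snap25, 50.4 ± 24.4 for Prune2 and 31.3 ± 20.1 for Nefm (SD, n = 4). Below them came Prph at 17.3 ± 20.7, Scn10a at 5.13 ± 9.66, Rab3c at 4.89 ± 1.58 and Pclo at 3.62 ± 0.51. The spread over libraries exceeded the gap between neighbours below Nefh. Within libraries, however, Mtap1b was above Nefl, Snap25 above Prune2, Prune2 above Nefm, Prph above Scn10a and Rab3c above Pclo in each of the 4 WT libraries. Exon lengths were taken from GENCODE M21, which is not the authors' annotation.

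Prph, which encodes peripherin, an intermediate filament of peripheral neurons and of small sensory neurons above all, was at 0, 0, 11.1 and 15.6 in Het 31, 53, 56 and 139, against 1.4, 21.9, 17.1 and 88.8 in WT 45, 54, 57 and 65. The genotypes overlapped, with Het 56 and Het 139 above WT 45 and close to WT 57. In Het 139 Prph was the highest of the 10 genes after Nefh per kilobase, while Nefl and Nefm were listed at 0 there. WT 65 was the highest library.

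The synaptic genes kept more even values over the WT libraries than Nefl and Nefm did. Pclo encodes Piccolo, a giant scaffold of the active zone, and was at 0, 0, 1.9 and 0 in Het 31, 53, 56 and 139, against 87.2, 73.9, 67.3 and 91.1 in WT 45, 54, 57 and 65. The single Het value stands for 1 read, the WT values for about 81 to 118 reads, and WT 45 was in the range of the other WT libraries. Rab3c, a small GTPase of synaptic vesicles, was listed at 0 in each of the 4 Het libraries, against 42.5, 39.5, 29.3 and 62.8 in WT 45, 54, 57 and 65. No fold is given for it, since the Het side is at 0 throughout. Pclo was 2.05, 1.87, 2.30 and 1.45 times Rab3c in WT 45, 54, 57 and 65, the second steadiest of the 45 ratios (SD 0.27 on the log2 scale).

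Snap25, a SNARE protein of neuronal and endocrine exocytosis, was at 0, 0, 15.0 and 6.0 in Het 31, 53, 56 and 139, against 78.2, 153.2, 151.1 and 210.8 in WT 45, 54, 57 and 65. The genotypes did not overlap, and WT 45 was the lowest WT library. Its Het mean was 3.54% of the WT mean. The related SNARE genes of other cells were at like levels in all libraries: Snap23 was at 1060.2 to 1219.4 in Het and 929.6 to 1128.6 in WT libraries, and no member of the family list (Snap23, Snap29 and Snap47) passed the limma test. Of the other Rab3 genes, Rab3d, known from secretory cells, was at 581.1 to 779.3 in Het and 593.8 to 799.4 in WT libraries, and Rab3a, of neurons and endocrine cells, at 114.2 to 206.0 in Het and 99.5 to 237.3 in WT libraries. None of the 4 tested genes of that family list passed.

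Scn10a, the sodium channel Nav1.8 known from pain-sensing neurons, was at 0, 0, 15.0 and 0 in Het 31, 53, 56 and 139, against 0, 1.5, 4.6 and 131.6 in WT 45, 54, 57 and 65. WT 65 alone was high, Het 56 with about 12 reads exceeded the other 3 WT libraries, and the genotypes overlapped. Without WT 65 the WT values are 0 to 4.6, so the difference between the genotypes in this gene is the value of 1 library.

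Over the 10 genes, 18 of 40 Het values and 1 of 40 WT values were 0. Het 56 was the highest Het library in 8 of the 10, WT 65 the highest WT library in 7 and WT 45 the lowest WT library in 7. Every Het library was below every WT library in 6 of the 10, a condition that 2.86% of the 12048 tested genes met. All 10 passed the filter on low values (8-library mean not under 10), and 5 (Mtap1b, Prune2, Pclo, Snap25 and Rab3c) were called lower in Het by limma at an adjusted p under 0.05, where 0.515% of the 12048 genes were. The same contrast chose the members, so nothing is read from these counts. The call of Mtap1b was lost without WT 57, and that of Snap25 without Het 31, Het 53, WT 54, WT 57 or WT 65, with no trend in the fit, and with the filter raised to a mean of 50, whereas Nefl was called without WT 45 and Nefm and Nefh without Het 56. Without both WT 45 and WT 54, the libraries with high keratin values, only Prune2 of the 10 was called. On the WT side that fit kept only WT 57 and WT 65. The log2 difference of Mtap1b was -7.15 in it, against -6.63 with all libraries. For Snap25 it was -5.79, against -5.44. Of the 10 genes, only Pclo and Nefh had a difference of smaller size in that fit. Without WT 45 alone the difference was -7.15 for Mtap1b and -5.71 for Snap25. Without WT 54 alone it was -6.45 for Mtap1b and -5.39 for Snap25. In Mtap1b and Snap25 the larger size thus came with leaving out WT 45, their lowest WT library.

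The wider neuronal cytoskeleton list held 23 genes, of which 16 were tested. Kif1a and Ank2 fell in Het (2 of 16, against 0.515% of all genes), none rose, and the median log2 difference of the 16 was -2.39, against 0.01 over all 12048 genes. Genes near 0 in Het passed the filter through their WT values alone, so these medians are a description. Mtap1a, a microtubule protein of mature axons, was at 0, 3.2, 41.2 and 1.9 in Het 31, 53, 56 and 139, against 55.8, 385.3, 261.4 and 387.5 in WT 45, 54, 57 and 65, with the order of WT libraries seen for Mtap1b (limma adjusted p = 0.0503). Stmn2, a regulator of microtubules in growing axons, was at 13.8 or less in Het libraries and at 5.1, 80.8, 131.6 and 173.2 in WT 45, 54, 57 and 65. Mapt, which encodes tau, was listed at 0 in each Het library, against 8.7 to 48.8 in WT libraries. Ina, a neurofilament partner known mainly from central neurons, was at 0 in Het and at 0.3 or less in WT libraries. Tubb3, a tubulin used as a neuron marker, was at 207 to 500.8 in Het and 278.6 to 446.4 in WT libraries, with full overlap.

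The synaptic vesicle and active zone list held 26 genes, of which 20 were tested. Cadps, a factor of dense core vesicle release, fell in Het (1 of 20), and none rose. All 20 had a lower mean log2 level in Het, with a median difference of -1.14, against 48.0% of all tested genes with a lower level. Cplx1, a complexin that clamps SNARE complexes, was at 0, 1.0, 16.6 and 3.8 in Het 31, 53, 56 and 139, against 6.0, 106.3, 104.2 and 87.3 in WT 45, 54, 57 and 65. Syn1, a synapsin that holds vesicles together, was at 3.2 to 4.4 in Het and at 3.4, 20.1, 35.4 and 47.7 in WT 45, 54, 57 and 65. Both were low in WT 45, as Nefl and Nefm were. Syt1, the calcium sensor of vesicle fusion, was highest in WT 45 instead, at 0.9, 3.2, 4.4 and 6.0 in Het 31, 53, 56 and 139, against 94.6, 17.1, 10.4 and 28.2 in WT 45, 54, 57 and 65. Vamp2 and Stx1a, SNARE partners of Snap25, were abundant in each library, Vamp2 at 4145.4 to 6182.8 in Het and 4775.1 to 6091.5 in WT libraries and Stx1a at 1287.6 to 1937.8 in Het and 1591.4 to 2048.9 in WT libraries.

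**Figure D2:**
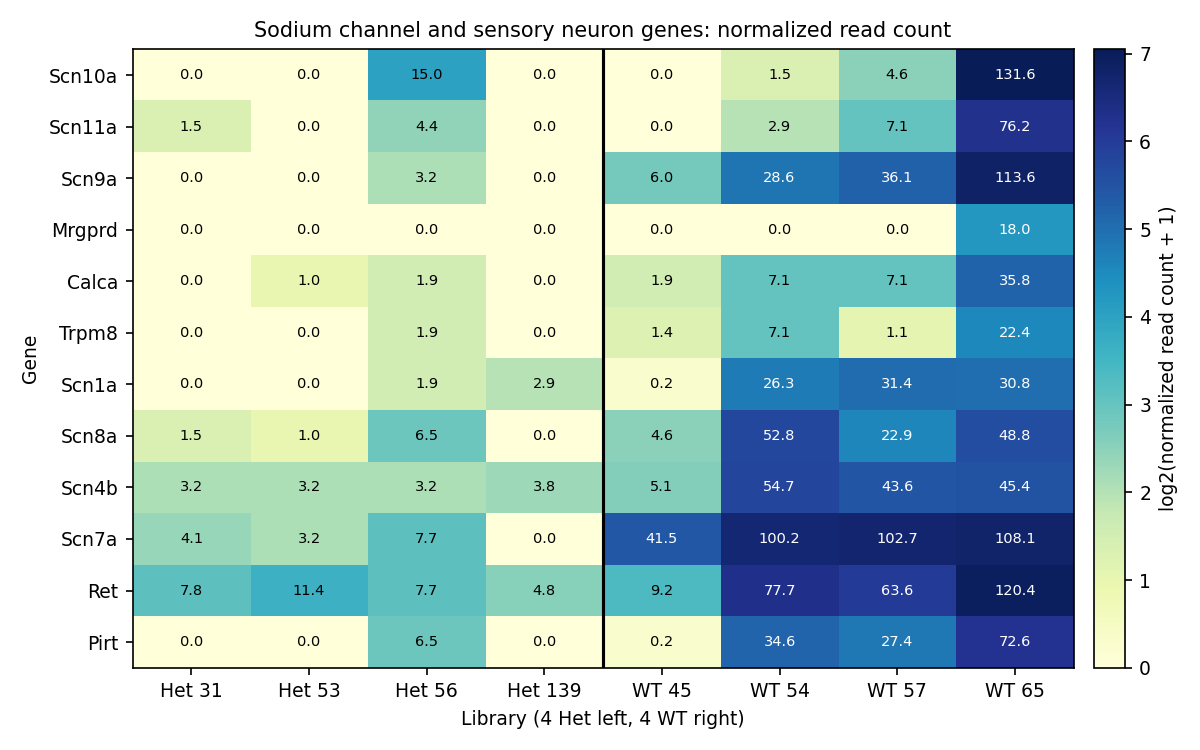
Normalized read counts of Scn10a and 11 sodium channel and sensory neuron genes (rows) in the 4 Het and 4 WT libraries (columns), coloured on a log2(value + 1) scale. Scn10a, Scn11a and Mrgprd are highest in WT 65, whereas Scn1a, Scn8a, Scn4b and Scn7a are at like values in WT 54 and WT 65.

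Other sodium channels were found beside Scn10a. Scn11a, the Nav1.9 channel of pain-sensing neurons, was at 1.5, 0, 4.4 and 0 in Het 31, 53, 56 and 139, against 0, 2.9, 7.1 and 76.2 in WT 45, 54, 57 and 65. Scn9a, the Nav1.7 channel of sensory and sympathetic neurons, was at 0, 0, 3.2 and 0 in the Het libraries, against 6.0, 28.6, 36.1 and 113.6 in the WT libraries. Both were highest in WT 65, as Scn10a was. Scn1a, known from fast-conducting axons, was instead at 0, 0, 1.9 and 2.9 in the Het libraries, against 0.2, 26.3, 31.4 and 30.8 in WT 45, 54, 57 and 65. Scn8a, the channel of nodes of Ranvier, was at 6.5 or less in Het and at 4.6, 52.8, 22.9 and 48.8 in the WT libraries, and the auxiliary subunit gene Scn4b at 3.2 to 3.8 in Het and 5.1, 54.7, 43.6 and 45.4 in the WT libraries. These 3 genes were at like values in WT 54 and WT 65. Of 9 tested genes on the list of 13, Scn7a alone passed the test, a channel known from Schwann cells as well as neurons.

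Markers of peripheral sensory neurons were at low values or near 0, with WT 45 near the Het libraries. Pirt, a membrane protein of nearly all such neurons, was at 0, 0, 6.5 and 0 in Het 31, 53, 56 and 139, against 0.2, 34.6, 27.4 and 72.6 in WT 45, 54, 57 and 65. Avil, an actin regulator known from sensory ganglia, was at 12.5 to 54.1 in Het and 57.9 to 101.7 in WT libraries, and Pou4f1, a transcription factor of sensory neurons, at 16.6 to 27.4 in Het and 12.9, 39.5, 35.4 and 37.6 in WT 45, 54, 57 and 65. Isl1, a factor of sensory, sympathetic and motor neurons, was at 1.9 or less in Het and 0.8 to 11.0 in WT libraries. The list's summed value was 39.9 to 81.0 in Het and 72.0 to 227 in WT libraries. Of the 8 genes, 4 stayed under 10 in each library. Of the 8, 3 were tested and none passed.

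The nociceptor list was carried mainly by WT 65. Of the 8 genes on it that reached 10 in any library, 7 were highest in WT 65. Mrgprd, a receptor of skin nociceptors without peptide transmitter, was at 18.0 in WT 65 and listed at 0 in the other 7 libraries. Calca, the gene of the peptide CGRP, was at 1.9 or less in Het and at 1.9, 7.1, 7.1 and 35.8 in WT 45, 54, 57 and 65. Trpv1, the heat and capsaicin receptor, was at 1.9 or less in Het and at 3.1 or less in WT libraries. Ret, a receptor of glial cell line-derived factors, was at 4.8 to 11.4 in Het and at 9.2, 77.7, 63.6 and 120.4 in WT 45, 54, 57 and 65. Like Nefl and Nefm it was low in WT 45, but unlike them it was highest in WT 65. The summed value was 24.1 to 68.6 in Het and 27.7 to 469.7 in WT libraries. Of the 17 genes on this list, 9 stayed under 10 in each library. None of the 4 tested genes passed.

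On the mechanoreceptor and proprioceptor list, Ntrk2 (1 of 5 tested genes) fell in Het. It encodes a neurotrophin receptor of touch neurons that glia also express, and was at 3.2 or less in Het and at 39.5, 42.5, 13.1 and 35.8 in WT 45, 54, 57 and 65. Fam38b, an older symbol of the touch channel gene Piezo2, was at 1.5, 6.0, 5.5 and 0 in Het 31, 53, 56 and 139, against 6.8, 45.4, 42.9 and 87.3 in WT 45, 54, 57 and 65. Pvalb, a calcium buffer of proprioceptors, was at 11.1 or less in Het and 14.8 or less in WT libraries. Ntrk3, the neurotrophin receptor of proprioceptors, was at 848.2 to 1039.4 in Het and 1037.3 to 1070.3 in WT libraries. Like Nefh and Tubb3 it was thus abundant in each library, also where Nefl was listed at 0.

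Most defining markers of autonomic and motor neurons were not detected at this depth. Of the 12 genes on the sympathetic list, Th and Dbh, the enzymes of noradrenaline synthesis, Phox2a and Hand2, transcription factors of these neurons, and the ganglionic receptor subunit Chrna3 were listed at 0 in all 8 libraries. The transporter Slc6a2 was at 4.1 in WT 45, 1.5 in WT 54 and 0 elsewhere. Ddc, an enzyme of amine synthesis not limited to neurons, was at 223.1 to 313.3 in Het and 210 to 299.9 in WT libraries. On the list of cholinergic, motor and enteric neurons, Chat, Slc18a3, Mnx1 and Vip were listed at 0 in all 8 libraries and the summed value of the 6 genes was 3.2 or less in Het and 2.8 or less in WT libraries.

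Most genes on the lists of central neurons were at or near 0 too. On the glutamatergic list, 7 of 11 genes stayed under 10 in each library, and Emx1 was listed at 0 in all 8. Slc17a7, a glutamate transporter of cortical and of large sensory neurons, was at 0 to 9.9 in Het and at 1.9, 18.5, 10.4 and 6.1 in WT 45, 54, 57 and 65. Slc17a6, the transporter of many other glutamate neurons, sensory ones included, was at 1.0 to 2.4 in Het and at 8.0, 14.0, 22.9 and 44.6 in the WT libraries. Camk2a and Nrgn, of forebrain synapses, were present in each library, Nrgn at 141 to 338.2 in Het and 99.8 to 425.6 in WT libraries. On the list of GABA neurons 7 of 10 genes stayed under 10, and Gad1, the enzyme of GABA synthesis, was at 0 to 13.2 in Het and 0 to 7.9 in WT libraries. Reln, the only gene of that list to be tested, was at 2.9 to 23.3 in Het and 21.8 to 46.6 in WT libraries. Each of the 6 genes of the cerebellum list stayed under 10, as did 5 of 6 on the retina list. Of these 4 lists, 3 glutamatergic, 1 GABA, 1 retina and 0 cerebellum genes were tested, and none of these passed.

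**Figure D3:**
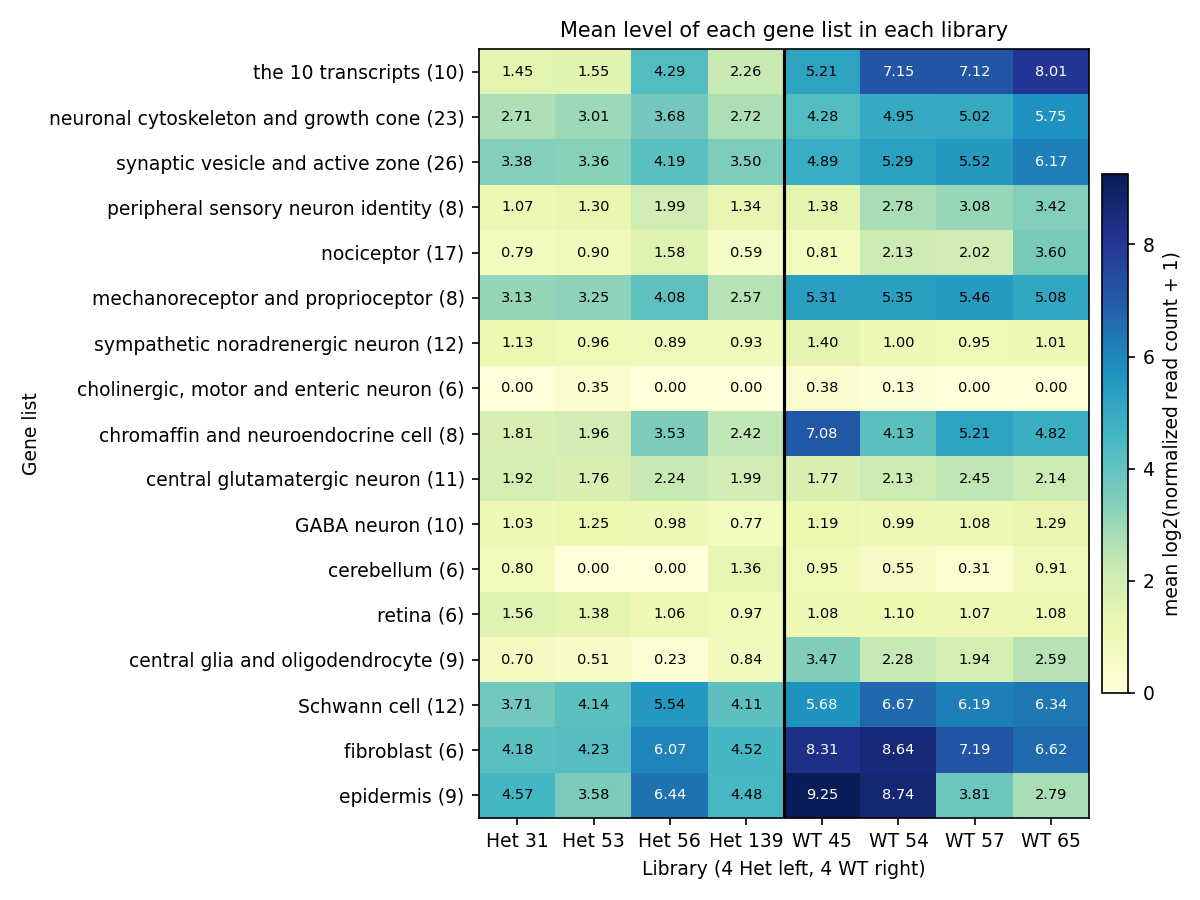
Mean log2(normalized read count + 1) of the 10 transcripts and of 16 marker lists (rows, number of genes in brackets) in the 4 Het and 4 WT libraries (columns). The chromaffin and neuroendocrine list is highest in WT 45 (7.08), the nociceptor list in WT 65 (3.60), and the sympathetic list is at 0.89 to 1.40 in all 8 libraries.

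WT 45 differed from the other WT libraries in several genes of secretory granules. Scg2, a granin of dense core granules, was at 0, 0, 20.6 and 4.8 in Het 31, 53, 56 and 139, against 1258, 16.4, 72.6 and 43.2 in WT 45, 54, 57 and 65. Chga, chromogranin A, was at 1.9 or less in Het and at 168.2, 8.8, 8.5 and 7.4 in the WT libraries, and Pcsk2, a prohormone protease, at 4.4 or less in Het and at 254.2, 11.6, 47.6 and 13.6 in the WT libraries. Chgb was high in more than 1 WT library, at 0.9 to 3.8 in Het and at 360.6, 8.8, 184.7 and 71.8 in WT 45, 54, 57 and 65. Scg3 fell in Het (1 of 7 tested genes), at 6.5 or less in Het and 86.1, 22.6, 28.2 and 70 in the WT libraries. Of the 7 genes of the list reaching 10 in any library, 6 were highest in WT 45. Pcsk1 was highest in Het 56 instead, at 84.3 to 216.1 in Het and 109.9 to 201.3 in WT libraries. Scg5 was at 71.5 to 184.8 in Het and 108.1 to 275.9 in WT libraries. Both were thus present in each library, with overlapping genotypes. Pnmt was at 0.2 or less in each library. Syt4, of dense core vesicles, was also highest in WT 45, at 9.9 or less in Het and at 199.4, 9.9, 25.6 and 73.6 in the WT libraries. WT 45 therefore paired Pclo and Rab3c at the level of the other WT libraries with high Scg2, Chga and Pcsk2 and with nearly no Nefl, Nefm, Scn1a or Pirt.

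**Figure D4:**
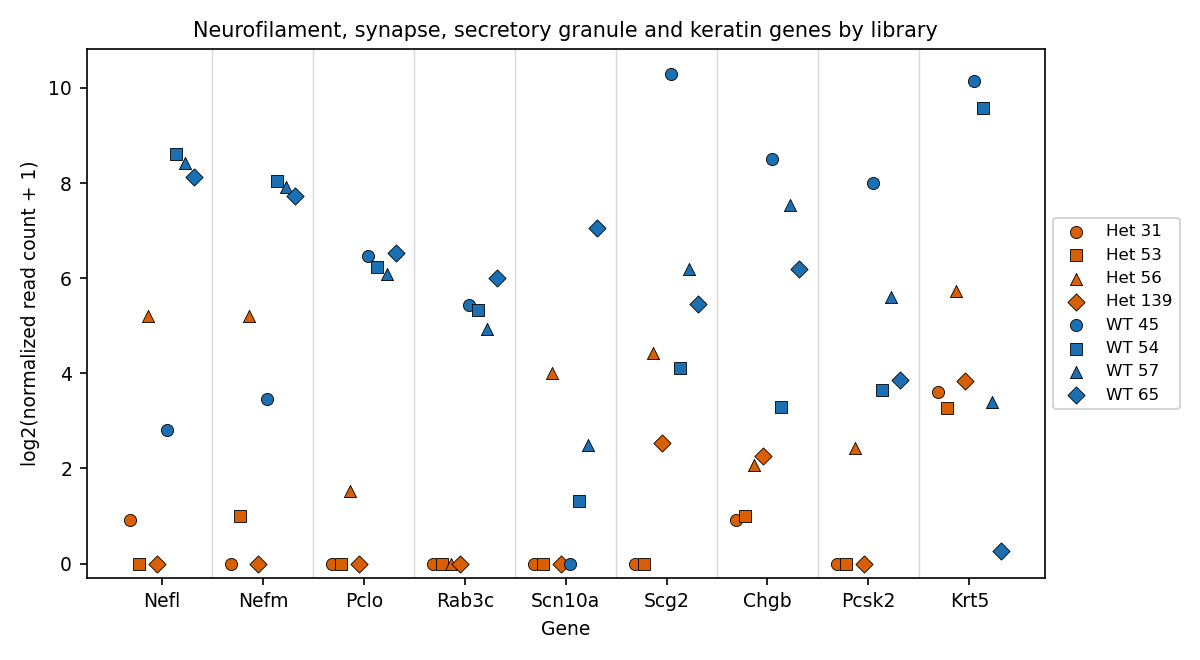
log2(normalized read count + 1) of 9 genes (horizontal axis) in each library, orange for Het and blue for WT, with 1 symbol per library. WT 45 (blue circles) is lowest of the WT libraries in Nefl and Nefm, within their range in Pclo and Rab3c and highest in Scg2, Chgb and Pcsk2, and WT 65 (blue diamonds) is highest in Scn10a.

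Across all 21 lists, with 209 genes found and 113 tested, 11 genes passed the limma test, where 0.515% of the 12048 genes were called lower and 0 higher. The lists were written with earlier results of these data known. Genes near 0 in Het, such as Aqp4 and Cadps, passed the filter through their WT values alone. These counts and p-values are therefore a description. All 11 were lower in Het: Ank2 (log2 change -4.26, limma adjusted p = 0.0202), Kif1a (-3.95, 0.0142), Cadps (-4.41, 0.0388), Scn7a (-4.50, 0.0202), Ntrk2 (-3.95, 0.0344), Scg3 (-4.53, 0.0368), Gfap (-4.21, 0.0215), Aqp4 (-4.06, 0.0494), Pmp22 (-4.48, 0.0357), S100b (-5.36, 0.00667) and Dcn (-4.44, 0.00536). Kif1a, an axonal motor, was at 2.9 to 17.9 in Het and 62.4 to 220.7 in WT libraries, and Ank2, which anchors membrane proteins of axons, at 2.1 to 12.4 in Het and 33.9 to 212.2 in WT libraries. By leaving out libraries singly, the number of these lists' genes called was 5, 3, 16 and 5 without Het 31, 53, 56 or 139 and 10, 3, 3 and 2 without WT 45, 54, 57 or 65. S100b and Dcn were called in each of these 8 fits, and Kif1a in 5 of them. Without both WT 45 and WT 54, with only WT 57 and WT 65 kept as WT libraries, none of the lists' genes was called.

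Marker lists of Schwann cells, fibroblasts and epidermis were also lower in Het than in WT libraries by their median, as the 10 transcripts were. On the Schwann cell list 6 of 8 tested genes had a lower level in Het, and S100b and Pmp22 fell. S100b, a calcium-binding protein of glia, was at 0.9, 3.2, 15 and 1.9 in Het 31, 53, 56 and 139, against 93, 225.8, 238.6 and 206.2 in WT 45, 54, 57 and 65. The summed value of the 12 genes was 10215.6 to 11173.5 in Het and 11029.5 to 12498.2 in WT libraries, most of it Mbp, which is abundant in each library. On the fibroblast list 6 of 6 genes had a lower level in Het, with a summed value of 183.5 to 821.9 in Het and 843.9 to 5093.5 in WT libraries, and no gene at 0 in all libraries. On the epidermis list 9 of 9 had a lower level in Het and none passed, with a summed value of 1147.3 to 2313.7 in Het and 1254.4 to 8074.4 in WT libraries. Without WT 45 and WT 54 the median log2 difference of the epidermis list turned to 1.22, against -1.59 with all libraries. Krt5, made in the basal layer of skin, was at 8.7 to 51.8 in Het and at 1125.6, 758.9, 9.6 and 0.2 in WT 45, 54, 57 and 65. In WT 57 and WT 65, where Krt5 was at 9.6 or less, Pclo was at 67.3 and 91.1, Rab3c at 29.3 and 62.8, and Snap25 at 151.1 and 210.8. Dcn of the fibroblast list was at 9.1 to 54.1 in Het libraries. In WT 45, 54, 57 and 65 it was at 482.7, 685.1, 425.6 and 285, thus high in WT 57 and WT 65 too. Of the 6 fibroblast genes, 6, 6, 3 and 2 were at least 2-fold over every Het library in WT 45, 54, 57 and 65. The part of Schwann cells, fibroblasts and epidermis in the values of the 10 transcripts was not tested.

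The genes most like the 10 in their pattern were found by the root mean square, over the 8 libraries, of the difference between a gene's centred log2 level and the centred mean profile of the 10. The mean log2 level of the 10 was 1.45, 1.55, 4.29 and 2.26 in Het 31, 53, 56 and 139, against 5.21, 7.15, 7.12 and 8.01 in WT 45, 54, 57 and 65. Ank2 was nearest, at 0.41, followed by Cadps (0.43), Scn9a (0.43), Rbms3 (0.50), Slc24a2 (0.54), Rgs7bp (0.55), Sult4a1 (0.59) and Egfr (0.60). Slc24a2, a sodium, calcium and potassium exchanger, was at 0, 0, 8.7 and 3.8 in Het 31, 53, 56 and 139, against 18.3, 127.9, 109.9 and 140.5 in WT 45, 54, 57 and 65. These 8 are the nearest by construction, and for the 10 themselves the measure ran from 0.85 (Snap25) to 2.16 (Nefh).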

How the data were processed

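Messenger RNA of splenic naive CD8 T cells was sequenced from 4 Het and 4 WT libraries (stranded polyadenylated RNA libraries, per the labels' protocols). The table deposited by the authors gives each of 22609 genes a signal, a normalized read count with 1 decimal. CASAVA, TopHat2, HTSeq, DESeq and build mm9 are named without roles or versions, per the submitters' processing notes. The deposited signal values share 1 distribution: at 9513 ranks averaging 100 or more, all libraries (100% of ranks) were within 2% of the rank's mean. Totals therefore carry no depth, and a difference in total RNA would not show. Reads behind a low value were estimated by its rank among the distinct values above 0 of its library, a lower bound where a read number has no gene. PCR copies were not marked, so counting limits cover counting error only.

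Genes with a mean of at least 10 (12048) were tested on log2(value + 1) by limma 3.58.1 (R 4.3.3) with its trend option, and 2-sided p-values were adjusted over all of them (Benjamini-Hochberg, threshold 0.05). Fold changes on this scale understate the change of low genes. The script was tested on simulated data. The members, the 21 lists and the tests were chosen with earlier results of these data known, so no pattern here is independent support. Text genes were the members, the first 3 genes and the up to 3 with the smallest p of each list, and the 8 most like the members. Mapt, Stmn2, Uchl1, Syt4, Cplx1, Stx1a, Vamp2, Scn8a, Calca, Mrgprd, Trpm8, Scg2, Scg5, Pcsk1, Mbp, Mag and the marker genes listed at 0 were named after their values were seen. Some genes are not reported here. Unnamed gene models were left out of the likeness ranking. Piezo2 was matched through its older symbol. Alternatives were the pseudocount (0.5 or 5), the filter (none, or a mean of at least 50), median-of-ratios size factors, no trend, leaving out each library, and, chosen after seeing the data, leaving out WT 45 and WT 54 together.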

Additional observations from a re-analysis of the deposited data

Results flagged for a closer look

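Libraries were screened with Dixon's criterion for 4 values, the gap from an extreme library to its neighbour over the range of its genotype. The screen covered most genes named in the text, 13 of them named after their values were seen. Pmp22, Slc1a2, Reln, Scg5, Pcsk1, Mbp, Pnmt and the marker genes not detected in any library were not screened. By chance about 1 in 20 groups is picked. That rate does not hold for tied low values or for genes named after their values were seen. The share picked is therefore a description. Of 154 groups, 35 (22.7%) were picked, 18 in Het 56, 8 in WT 45, 5 in WT 65 and 4 in Het 139. In 16 of the 35 the other libraries were all equal, so that any difference met the criterion.

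Among Het libraries, 56 was apart, and high, in Mtap1b (76.1, others 2.4 to 7.9), Nefl and Nefm (35.7 each, others at most 1), Scn10a (15, others 0), Mtap1a (41.2, others at most 3.2), S100b (15, others 0.9 to 3.2) and Krt5 (51.8, others 8.7 to 13.4). With the other Het libraries at 0, or at most 1 for Scg3, it held low values of Pclo, Chga, Trpv1 and Trpm8 (1.9 each, 1 read), Scn9a and Egfr (3.2 each), Pcsk2 (4.4), Cadps (5.5), Pirt and Scg3 (6.5 each) and Syt4 (9.9).

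WT 65 stood above the other WT libraries in Scn10a (131.6, others 0 to 4.6), Scn11a (76.2, others 0 to 7.1), Calca (35.8, others 1.9 to 7.1), Mrgprd (18, others 0) and Trpv1 (3.1, others 0 to 0.3). All 5 are known from nociceptors.

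WT 45 stood above the other WT libraries in Scg2 (1258, others 16.4 to 72.6), Pcsk2 (254.2, others 11.6 to 47.6) and Chga (168.2, others 7.4 to 8.8). It stood below them in Scn1a (0.2, others 26.3 to 31.4), Scn7a (41.5, others 100.2 to 108.1), Pou4f1 (12.9, others 35.4 to 39.5), Rgs7bp (9.2, others 75.9 to 88.8) and Sult4a1 (8.7, others 50.7 to 56.9).

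Het 139 was apart in Scn4b (3.8, others 3.2), Isl1 and Aqp4 (1.9 each, others 0) and Gfap (0, others 3.2).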

How the results depend on the processing

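Over all genes 62 were lower in Het. The count was 114 with no filter on low values, 14 with a mean of at least 50, 3 without WT 45 and WT 54, and 11 to 88 without single libraries. Of the 10 transcripts 5 were called, against 2 with a mean of at least 50 (Mtap1b and Prune2), 1 without WT 45 and WT 54 (Prune2), and 3 to 7 without single libraries. Of the lists' genes 11 were called, against 7 with a pseudocount of 0.5, 2 with a mean of at least 50, 0 without WT 45 and WT 54, and 2 to 16 without single libraries. A mean of at least 50 removes Pclo, Rab3c, Prph and Scn10a from the test, while Snap25 stayed in it and lost its call, as it did with no trend; the cause was not tested. No log2 difference of the 10 transcripts changed sign where it could be fitted, with 137 values moving by less than the SD between WT libraries and 7 by more. Without WT 65, Prph and Scn10a were under the filter and have no value. For list medians 233 moved by less and 48 by more. The list counts take no account of sign. The median changed sign in some fits for the epidermis list (-2.75 to 1.22 over the alternatives). It also did for other intermediate filaments (-1.24 to 0.01) and the Rab3 family (-0.17 to 0.03). Retina (-0.15 to 0.17), sympathetic neurons (-0.13 to 0.17) and central glutamatergic neurons (-0.06 to 0.18) changed sign too. Genes higher in Het were called with no filter (9), with no trend (10), without Het 56 (3) and without WT 65 (1). No paired analysis was possible because the genotypes share no replicate number.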

Other observations

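On the list of 9 genes of central glia 3 were tested, of which Gfap and Aqp4 fell in Het and Slc1a2 did not pass. Slc1a2 was at 1.9 or less in Het and at 73.7, 14.8, 3.3 and 14.4 in WT 45, 54, 57 and 65. Gfap, a filament of astrocytes and of nonmyelinating Schwann cells, was at 3.2 or less in Het and at 78.2, 87.1, 34.5 and 33.8 in WT 45, 54, 57 and 65. Aqp4, a water channel of astrocytes, was at 1.9 or less in Het and at 40.6, 20.6, 9.6 and 22.4 in the WT libraries. Mobp, of central myelin, was listed at 0 in Het and was at 34.9, 6.0, 1.6 and 7.4 in the WT libraries. Mag, of myelin, was at 17.2, 4.9, 0 and 4.8 in Het 31, 53, 56 and 139, against 13.5, 3.2, 4.6 and 8.6 in WT 45, 54, 57 and 65, with full overlap. The other 4 genes of the list stayed under 10 in each library. Uchl1, a ubiquitin hydrolase abundant in neurons and endocrine cells, was at 9.1 to 31.7 in Het and at 22.5, 66.2, 83.6 and 185.4 in WT 45, 54, 57 and 65.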
